A study of Mus musculus with 6 samples.

Results

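The genes described are those of the mouse ABC transporter family, read from colon RNA of mice that received lenvatinib or its solvent DMSO. Members were taken by symbol from the deposited expression table: the letters Abc, a subfamily letter from a to g, a number and, where present, a or b. The rule matched 48 of 25339 genes and used no measured value. Of these, 6 export pumps for drugs and conjugates were set apart: Abcb1a, Abcb1b, Abcg2, Abcc1, Abcc2 and Abcc3. The lenvatinib group had 3 libraries and the DMSO group 3, which the labels number as biological replicates. Lenvatinib is an oral inhibitor of receptor tyrosine kinases, among them the VEGF receptors. The labels used here give no strain, sex, age, dose, duration or route. They also do not say which animal each library came from, or whether colitis, the subject of the series title, was induced.

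ABC transporters bind ATP in paired cytosolic domains and use it to move lipids, sterols, bile acids, peptides, haem precursors or drugs across a membrane. In the gut, P-glycoprotein and the breast cancer resistance protein BCRP sit on the luminal face of enterocytes and return drugs to the lumen, while MRP3 exports conjugates towards the blood. Lenvatinib itself is known as a substrate of P-glycoprotein and BCRP. Subfamilies E and F keep the ATP-binding domains, lack membrane spans and act on ribosomes.

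Levels are FPKM, fragments scaled to gene length and library depth, and can be compared between genes because they are per length. Each fold change is the lenvatinib mean minus the DMSO mean of log2(FPKM + 1), so that changes of low genes are understated. The test was limma, run on genes that averaged 1 FPKM or more across the 6 libraries, with p-values adjusted by the Benjamini-Hochberg method over all 11774 such genes, at a threshold of 0.05. Of the 48 members, 29 reached that mean and 19 did not. The 19 are described by their levels and reads.

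Recovered depth per library lay between 37660160 and 39287461 gene reads. Libraries 2 and 3 of each group resembled each other closely, with an estimated residual correlation of 0.90 within these pairs, so p-values measure a spread between libraries that may be partly technical. Library DMSO 1 differed from the other 5 in sex-linked transcripts, with Ddx3y at 6.54 FPKM against a listing at 0 in the others, and Xist at 0.00147 FPKM against 15.9 to 19.8 FPKM. Markers of absorptive colonocytes were detected in every library, at a summed level of 9651 to 13188 FPKM with lenvatinib and 10132 to 11874 FPKM with DMSO. Of these 10 markers 8 had positive fold changes, with a median of 0.22. Markers of the small intestine were also present and rose in the lenvatinib libraries, with 5 of 9 tested genes passing. Of those passing, at least Apoa1 and Mttp met the filter only through the lenvatinib libraries and had to differ. Their summed level was 271 to 377 FPKM with lenvatinib and 63.0 to 74.1 FPKM with DMSO, and none of the 11 genes of that list in the table was at 0 in any library.

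None of the 29 tested ABC genes passed in limma, in either direction. Over all genes tested, 239 passed (2.03%), 129 higher (1.10%) and 110 lower (0.934%). At an unadjusted p below 0.05 there were 7 members, 2 higher and 5 lower, a share of 24.1% beside 22.0% of all genes. With a pseudocount of 0.1 FPKM, 0 members passed, where 1.99% of all genes did. A count-based limma test on the recovered reads (voom) called 1 member, Abca9, lower, which met the filter only through the DMSO libraries. The median log2 fold change was -0.02 over the 29 members and -0.07 over all genes tested, and the members ranged from -0.60 to 0.39. Fold changes were positive for 13 of 29 members, beside 36.1% of all genes. All 3 lenvatinib libraries lay on the same side of the DMSO range for 9 of 29 members, 4 above and 5 below, beside 27.5% of all genes (10.0% above and 17.5% below).

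**Figure D1:**
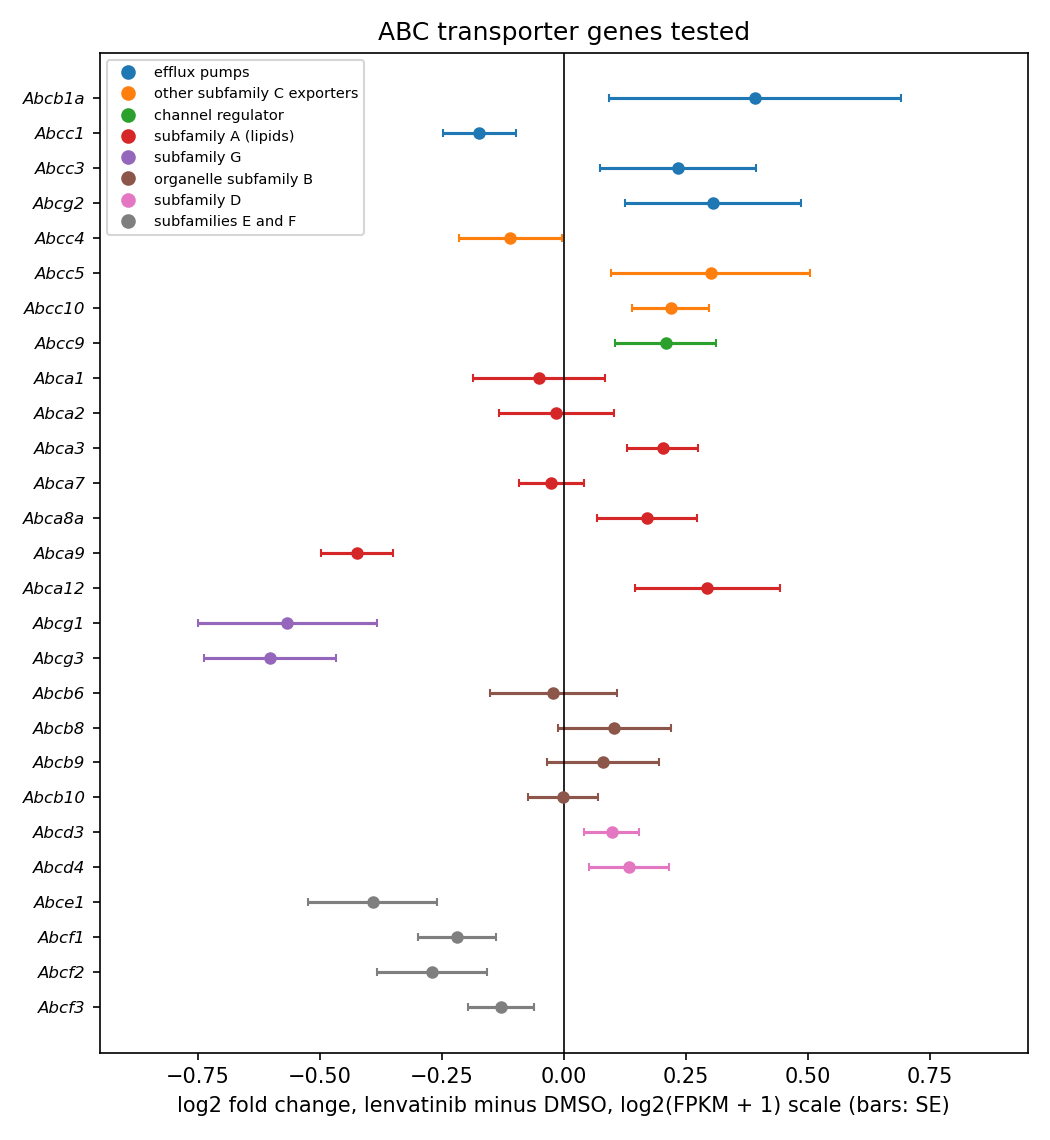
Log2 fold change of 27 of the 29 tested ABC genes, lenvatinib over DMSO from log2(FPKM + 1) values, with the standard error from limma as bars and colours for functional groups. Values run from -0.60 for Abcg3 to 0.39 for Abcb1a, and all 4 genes of subfamilies E and F lie below 0.

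The libraries of the lenvatinib group did not behave alike. Lenvatinib 1 lay within the DMSO range for 12 of 29 members, above it for 8 and below it for 9. Without lenvatinib 1, 8 members rose and 8 fell (27.6% each), where 9.85% and 28.2% of all genes passed in those directions. In that comparison 4479 of 11774 genes passed (38.0%), so a pass there is common. The lenvatinib group then consists of libraries 2 and 3, the pair that resembled each other closely. All p-values without lenvatinib 1, here and below, may therefore rest partly on technical spread. The 8 higher were Abcb1a, Abcc3, Abcg2, Abcc5, Abcc10, Abca3, Abca8a and Abca12. The lower ones included Abcg1, Abcg3, Abca9, Abce1, Abcf1, Abcf2 and Abcf3, of which Abcg3 and Abca9 met the filter only through the DMSO libraries. Leaving out any other library left 0 members passing in limma. With sample weights, 9 members passed higher and 10 lower, but there 64.4% of all genes passed.

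**Figure D2:**
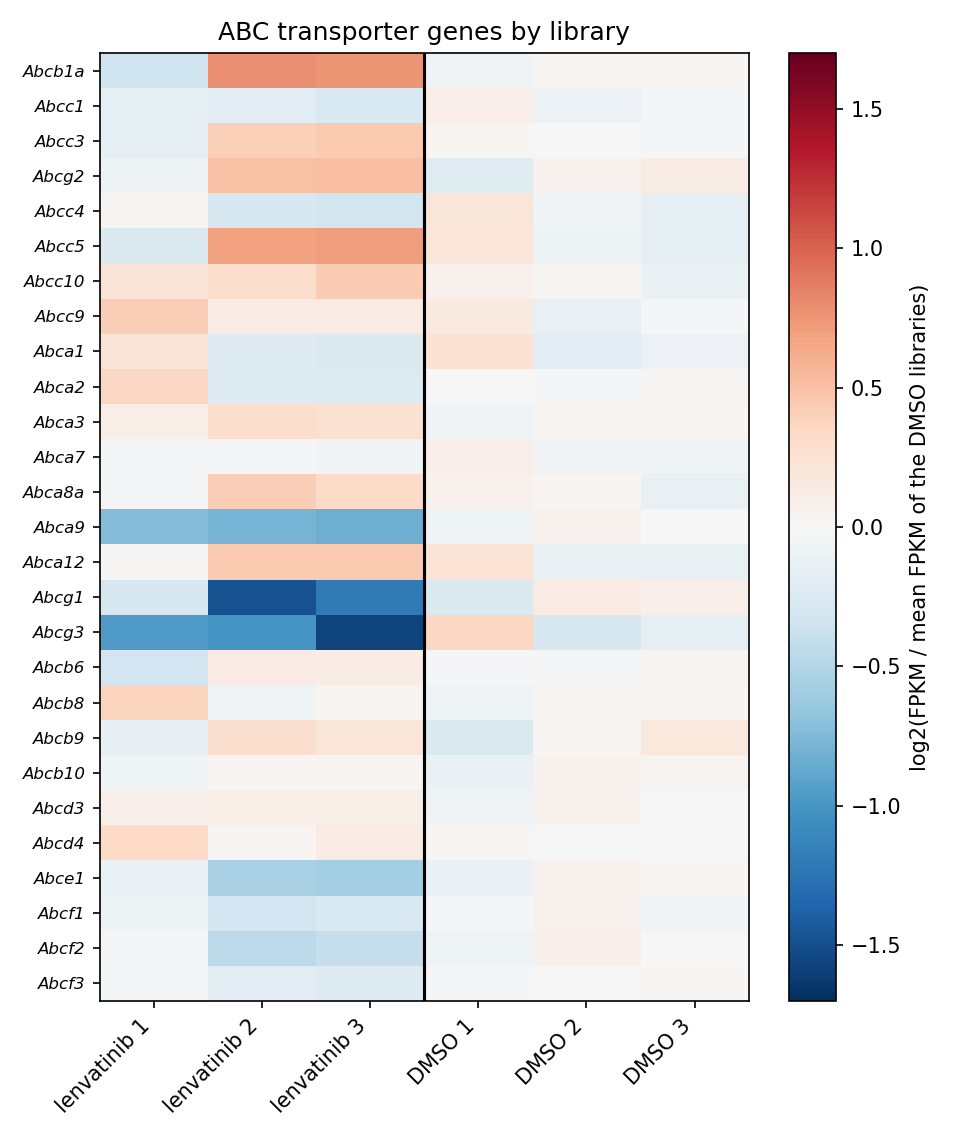
Level of 27 of the 29 tested ABC genes in each library, as log2 of FPKM over the mean of the DMSO libraries (red higher, blue lower), lenvatinib left of DMSO. Lenvatinib 2 and 3 mostly resemble each other, while lenvatinib 1 often has the colour of the DMSO libraries or the opposite one, as for Abcb1a at 77.2 FPKM beside 168 and 165 FPKM.

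The most abundant member was Abcb1a, 1 of 2 mouse genes for P-glycoprotein. It measured 77.2, 168 and 165 FPKM in lenvatinib 1 to 3, against 93.6, 100.3 and 100.1 FPKM in DMSO 1 to 3. Lenvatinib 1 was thus the lowest of the 6 libraries and lenvatinib 2 and 3 the highest, so the groups overlap. Means were 137 ± 51.5 FPKM with lenvatinib and 98.0 ± 3.82 FPKM with DMSO (SD, n = 3 each), and the log2 fold change of 0.39 (SE 0.299) did not pass (limma adjusted p = 0.439). An exact permutation test over the 20 regroupings gave a two-sided p of 0.4, where 0.1 is the smallest that 3 against 3 allows. Without lenvatinib 1 the fold change was 0.76 and passed (limma adjusted p = 7.45e-04), with the closely alike lenvatinib 2 and 3 as the whole group. With all libraries kept, limma gave an adjusted p of 0.938 with libraries 2 and 3 of each group averaged. It gave 0.959 with these pairs as a random block. Colonocyte markers followed a like order: their summed level was 9651, 13188 and 13164 FPKM in lenvatinib 1 to 3 and 10132, 11536 and 11874 FPKM in DMSO 1 to 3. Of these 10 markers 0 passed in limma (3 at an unadjusted p below 0.05), all 10 were detected, and their part in the Abcb1a values was not tested.

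Abcb1b, the second P-glycoprotein gene and the next gene along the chromosome, was under the filter. It measured 0.854, 0.354 and 0.352 FPKM with lenvatinib, from 163, 69 and 68 reads, and 0.686, 0.820 and 0.468 FPKM with DMSO, from 130, 162 and 91 reads. Here lenvatinib 1 was the highest library and lenvatinib 2 and 3 the lowest, the reverse of Abcb1a. The level of Abcb1a was 90.4, 474 and 468 times that of Abcb1b in lenvatinib 1 to 3, and 136, 122 and 214 times in DMSO 1 to 3. The genes are close paralogues, so the authors' counting could move some reads between them. Their RefSeq promoters (build GRCm38.p6, plus strand, 250 bases before to 50 after the annotated start) are shown because these neighbours differ so much in level. Capitals mark matches, on either strand, to the GC box GGGCGG, the CCAAT box, the TATA box TATAAA, the E-box CACGTG, the GATA site AGATAA, the nuclear receptor site AGGTCA, the antioxidant response core TGACNNNGC and the DR1 repeat, which contains the nuclear receptor site. Abcb1a lies at chr5:8566841-8567140 and Abcb1b at chr5:8797897-8798196.
Abcb1a: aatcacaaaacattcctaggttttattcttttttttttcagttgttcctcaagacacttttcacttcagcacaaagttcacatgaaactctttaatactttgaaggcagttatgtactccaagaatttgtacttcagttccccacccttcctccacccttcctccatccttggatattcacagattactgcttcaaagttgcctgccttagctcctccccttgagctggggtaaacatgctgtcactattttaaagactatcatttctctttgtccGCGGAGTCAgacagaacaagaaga
Abcb1b: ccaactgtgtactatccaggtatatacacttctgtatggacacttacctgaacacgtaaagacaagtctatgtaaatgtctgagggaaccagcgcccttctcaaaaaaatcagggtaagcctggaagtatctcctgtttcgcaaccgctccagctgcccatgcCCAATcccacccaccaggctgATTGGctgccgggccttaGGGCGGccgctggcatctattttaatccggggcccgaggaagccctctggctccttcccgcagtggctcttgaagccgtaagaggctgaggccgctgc
The Abcb1a window has a GC content of 40.3% and a single match, the antioxidant response core, which 12.4% of all 32851 promoter windows hold. The Abcb1b window has 55% GC, a GC box (35.7% of windows) and CCAAT boxes on both strands. At least 1 CCAAT box, on either strand, occurs in 37.4% of windows. These matches describe the letters and show no binding.

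Abcc3, which encodes the basolateral conjugate exporter MRP3, was second in level in both groups. It measured 73.8, 109 and 111 FPKM with lenvatinib, against 83.7, 81.0 and 80.4 FPKM with DMSO. As for Abcb1a, lenvatinib 1 was the lowest library and the other 2 lenvatinib libraries the highest. The log2 fold change was 0.23 (SE 0.160, limma adjusted p = 0.393), and without lenvatinib 1 it was 0.42 and passed (limma adjusted p = 0.00233). Abcg2, which encodes BCRP, measured 32.2, 48.4 and 49.0 FPKM with lenvatinib and 29.8, 35.7 and 37.5 FPKM with DMSO. Lenvatinib 1 lay within the DMSO range and the other 2 above it. The log2 fold change was 0.31 (SE 0.181, limma adjusted p = 0.337), and 0.50 without lenvatinib 1 (limma adjusted p = 0.0153).

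Abcc1, for the conjugate exporter MRP1, ran lower and without overlap, at 5.42, 5.31 and 5.06 FPKM with lenvatinib against 6.57, 5.67 and 5.97 FPKM with DMSO. Its log2 fold change of -0.17 (SE 0.0739) did not pass (limma adjusted p = 0.236), also not without lenvatinib 1 (0.0889). Abcc2, for the luminal exporter MRP2, was near the floor, with 12, 66 and 52 reads with lenvatinib and 5, 19 and 13 reads with DMSO. These correspond to 0.0555, 0.299 and 0.238 FPKM with lenvatinib and 0.0233, 0.0849 and 0.0591 FPKM with DMSO. Lenvatinib 1 again lay among the DMSO libraries. Summed over the 6 pumps, the level was 189, 331 and 331 FPKM in lenvatinib 1 to 3 and 214, 224 and 225 FPKM in DMSO 1 to 3, or 39.3, 53.6 and 53.6% of all ABC FPKM with lenvatinib and 42.5, 42.8 and 43.4% with DMSO.

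**Figure D3:**
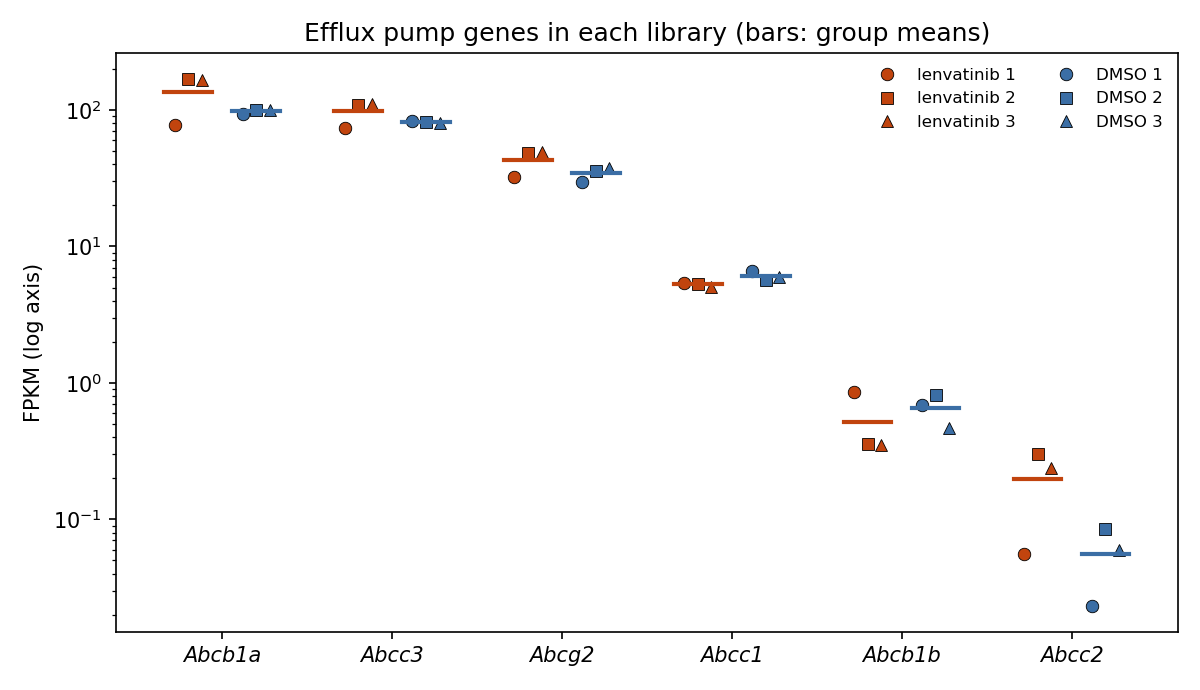
FPKM of the 6 efflux pump genes in each library on a log axis, lenvatinib (orange) left of DMSO (blue), with bars for group means. For Abcb1a and Abcc3 the lenvatinib 1 point (circle) lies below every DMSO library and lenvatinib 2 and 3 above them. Abcb1b shows the opposite order.

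Among the other exporters of subfamily C, Abcc5, a transporter of cyclic nucleotides, had the pattern of Abcb1a. It measured 2.10, 3.98 and 4.05 FPKM with lenvatinib and 2.86, 2.34 and 2.24 FPKM with DMSO (log2 fold change 0.30, limma adjusted p = 0.392, and 0.00929 without lenvatinib 1). Abcc4, another exporter of cyclic nucleotides, measured 2.05, 1.65 and 1.60 FPKM with lenvatinib and 2.29, 1.91 and 1.77 FPKM with DMSO, overlapping groups (adjusted p = 0.534). Abcc10, which encodes MRP7, was above the DMSO range in every lenvatinib library, at 2.31, 2.45 and 2.69 FPKM against 2.10, 2.03 and 1.85 FPKM in DMSO (log2 fold change 0.22, SE 0.0795, limma adjusted p = 0.194).

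Abcc6, which mediates ATP release and thereby restrains calcification, was under the filter but did not overlap. Its level was 0.940, 0.791 and 0.741 FPKM with lenvatinib, from 197, 169 and 157 reads, against 0.433, 0.484 and 0.450 FPKM with DMSO, from 90, 105 and 96 reads. The mean was 1.81 times that of DMSO. With the filter lowered to 0.1 FPKM, where 1.59% of 15695 genes passed, Abcc6 had a limma adjusted p of 0.0793. Abcc6 was highest in lenvatinib 1. Abcc12 rested on at most 2 reads in any library.

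Abcc8 and Abcc9 encode the sulphonylurea receptors SUR1 and SUR2, which regulate ATP-sensitive potassium channels rather than transport a substrate. Abcc9 measured 8.88, 7.34 and 7.32 FPKM with lenvatinib and 7.40, 6.07 and 6.48 FPKM with DMSO (log2 fold change 0.21, limma adjusted p = 0.281). The groups overlap, because DMSO 1 exceeded lenvatinib 2 and 3. Its pore partner Kcnj8 measured 12.8, 10.3 and 10.1 FPKM with lenvatinib and 8.68, 8.32 and 7.81 FPKM with DMSO, with no overlap (log2 fold change 0.37, limma adjusted p = 0.125). Of the markers of pericytes, Kcnj8 among them, 0 of 5 passed (2 at an unadjusted p below 0.05), with summed levels of 53.0 to 64.0 FPKM with lenvatinib and 50.3 to 62.1 FPKM with DMSO. Abcc8 was low, at 0.377, 0.229 and 0.284 FPKM with lenvatinib and 0.400, 0.134 and 0.151 FPKM with DMSO.

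The sterol transporters Abcg5 and Abcg8 had the largest ratios of all members. Together they form the pump that returns plant sterols and cholesterol from enterocytes to the lumen. Abcg5 measured 0.726, 1.47 and 1.56 FPKM with lenvatinib, from 67, 138 and 146 reads, against 0.0109, 0.0628 and 0.0426 FPKM with DMSO, from 1, 6 and 4 reads. Abcg8 measured 0.390, 1.10 and 1.28 FPKM with lenvatinib, from 56, 161 and 186 reads, against 0.0140, 0.00673 and 0.00685 FPKM with DMSO, from 2, 1 and 1 reads. Every lenvatinib library was above every DMSO library for both genes, and lenvatinib 1 was the lowest of its group for both. Summed reads per total depth were 32.1 times higher for Abcg5 with lenvatinib (351 against 11 reads, exact binomial 95% interval 17.7 to 64.8) and 101 times higher for Abcg8 (403 against 4 reads, 39.2 to 373). These intervals cover counting error only, not the spread between libraries.

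Both means over the 6 libraries were below 1 FPKM, so neither gene entered the main test, although in lenvatinib 2 and 3 both exceeded 1 FPKM. Their DMSO means, 0.0388 FPKM for Abcg5 and 0.00921 FPKM for Abcg8, were also below 0.1 FPKM, so both passed a filter at 0.1 FPKM only through the lenvatinib libraries and had to differ there. The values under that filter are given as a description. Abcg5 had a log2 fold change of 1.09 (SE 0.153, limma adjusted p = 0.0288) and Abcg8 had a log2 fold change of 0.90 (SE 0.181, adjusted p = 0.0770). With no filter the adjusted p was 0.0586 for Abcg5 and 0.137 for Abcg8, among 23951 genes of which 0.585% passed. An exact permutation test gave a two-sided p of 0.1 for each, the smallest possible. Markers of small intestinal enterocytes were higher in the same libraries. Fabp6, which carries bile acids inside ileal cells, rose (161, 159.8 and 148 FPKM with lenvatinib, 1.44, 2.28 and 2.27 FPKM with DMSO, limma adjusted p = 2.01e-05). Unlike Abcg5 and Abcg8, Fabp6 was highest in lenvatinib 1 within its group. Apoa1, an apolipoprotein secreted by enterocytes, rose as well (6.16, 40.0 and 40.3 FPKM with lenvatinib, 0.506, 0.230 and 0.208 FPKM with DMSO, limma adjusted p = 0.0441). Like Abcg5 and Abcg8, Apoa1 was lowest in lenvatinib 1 within its group. Apoa1 met the 1 FPKM filter only through the lenvatinib libraries and had to differ there. The part of these cells in the Abcg5 and Abcg8 values was not tested, and in tissue RNA more cells of a type and more RNA per cell cannot be told apart.

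**Figure D4:**
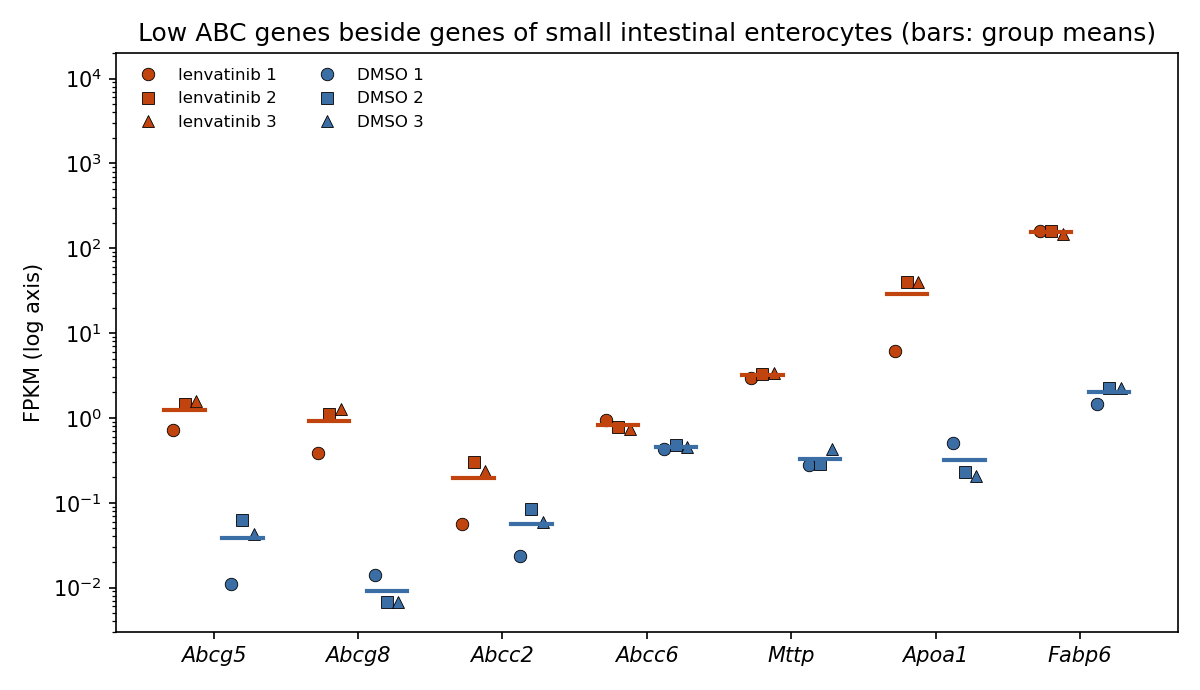
FPKM of Abcg5, Abcg8, Abcc2 and Abcc6 beside Mttp, Apoa1 and Fabp6, genes of small intestinal enterocytes, in each library on a log axis (lenvatinib orange, left; DMSO blue, right; bars are group means). Abcg5 and Abcg8 lie at 0.390 to 1.56 FPKM in the lenvatinib libraries and at 0.00673 to 0.0628 FPKM in the DMSO libraries.

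Abcg5 and Abcg8 are neighbours that start in opposite directions, with 110 bases between their annotated starts in RefSeq (build GRCm38.p6). Their promoter windows share 209 bases. The window of Abcg8 next to Abcg5 is shown because both members had their highest levels in the same libraries (chr17:84682871-84683170, plus strand, capitals as above).
Abcg8: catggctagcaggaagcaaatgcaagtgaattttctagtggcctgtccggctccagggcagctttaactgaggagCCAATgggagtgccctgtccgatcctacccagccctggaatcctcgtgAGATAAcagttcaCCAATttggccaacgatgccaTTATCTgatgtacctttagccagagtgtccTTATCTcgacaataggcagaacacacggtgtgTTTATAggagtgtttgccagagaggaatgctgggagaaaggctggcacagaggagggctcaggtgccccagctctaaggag
It holds 3 matches to the GATA letters AGATAA, at positions 124, 158 and 188 from its 5′ end, of which the first is on the strand shown and the other 2 on the opposite strand. At least 1 such match occurs in 11.2% of all promoter windows and in 11.6% of member windows. At least 3 occur in 35 windows (0.107%), a cut-off that is the count of this window itself. All 3 matches of the Abcg8 window lie in the bases shared with the Abcg5 window, which therefore holds the same 3 matches. Both windows are counted among the 35. A second annotated Abcg8 window, not shown, holds none of the motifs. As above, the matches describe the letters and show no binding.

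Genes that work with these sterol pumps were described from a list of 13. Of 10 tested, 2 rose and 0 fell, and the median log2 fold change was 0.22. The 2 were Apoa1 and Mttp, the lipid transfer protein that assembles chylomicrons (2.96, 3.34 and 3.42 FPKM with lenvatinib, 0.277, 0.286 and 0.432 FPKM with DMSO, limma adjusted p = 0.00103). Both were below 1 FPKM in every DMSO library. They met the filter only through the lenvatinib libraries and had to differ there, so their p-values are given as a description. Npc1l1, the intestinal cholesterol importer, was picked out after its values were seen. It was under the filter, at 0.486, 1.67 and 1.73 FPKM with lenvatinib against 0.0461, 0.0276 and 0.0337 FPKM with DMSO, and like Abcg5 and Abcg8 it was lowest in lenvatinib 1 within its group. Scarb1, a receptor for high-density lipoprotein, was lower without overlap and did not pass (5.89 ± 0.287 FPKM with lenvatinib, 7.67 ± 0.262 FPKM with DMSO, adjusted p = 0.0677).

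Abcg1, which passes cholesterol from macrophages to high-density lipoprotein, was lower in the lenvatinib libraries. It measured 1.76, 0.765 and 0.922 FPKM with lenvatinib and 1.79, 2.34 and 2.26 FPKM with DMSO. The groups do not overlap, but lenvatinib 1 and DMSO 1 differ by little (196 against 198 reads). The log2 fold change of -0.57 (SE 0.183) did not pass (limma adjusted p = 0.165) and was -0.76 without lenvatinib 1 (adjusted p = 0.00462). Macrophage markers fell in the same comparison, 9 of 11 passing, with a summed level of 158 to 211 FPKM with lenvatinib and 360.4 to 408 FPKM with DMSO. No marker of that list was at 0, and its part in the Abcg1 values was not tested. Abca1, the pump that loads cholesterol onto apolipoprotein A-I and shares with Abcg1 its control by the liver X receptors, showed no such difference, at 3.80, 2.80 and 2.76 FPKM with lenvatinib against 3.85, 2.87 and 3.05 FPKM with DMSO (log2 fold change -0.05, SE 0.136). In both groups library 1 was the highest for Abca1.

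Abcg3, a rodent relative of Abcg2, had the most negative fold change. It measured 0.852, 0.815 and 0.557 FPKM with lenvatinib, from 124, 121 and 82 reads, and 2.12, 1.37 and 1.47 FPKM with DMSO, from 306, 207 and 218 reads. The groups were apart, with a log2 fold change of -0.60 (SE 0.136), which did not pass (limma adjusted p = 0.0920) and passed without lenvatinib 1 (0.0199). With means of 0.741 FPKM with lenvatinib and 1.65 FPKM with DMSO, Abcg3 met the 1 FPKM filter only through the DMSO libraries. It therefore had to differ in these tests. Abcg4 was low and overlapping, at 0.203 ± 0.0347 FPKM with lenvatinib and 0.193 ± 0.0288 FPKM with DMSO.

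In subfamily A, whose known members move lipids, Abca9 came closest to the threshold. It measured 0.932, 0.896 and 0.872 FPKM with lenvatinib, from 264, 259 and 250 reads, against 1.47, 1.63 and 1.55 FPKM with DMSO, from 413, 478 and 447 reads. The groups were well apart and each was tight, lenvatinib 1 included. The log2 fold change was -0.42 (SE 0.0738, limma adjusted p = 0.0503, exact permutation two-sided p = 0.1). It passed in 5 of 17 alternatives, among them the voom test on recovered reads (log2 fold change -0.78, adjusted p = 0.0229) and the 0.1 FPKM filter (0.0439), with adjusted p from 1.89e-04 to 0.849 over the 17. ABCA9 was described in human macrophages, and fibroblast markers are given beside it as well: 5 of 11 fell, with a summed level of 372 to 438 FPKM with lenvatinib and 599 to 629 FPKM with DMSO. None of these 11 markers was at 0, and the part of either cell type was not tested.

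Abca9 sits in a run of 5 neighbouring subfamily A genes, in the order Abca8b, Abca8a, Abca9, Abca6 and Abca5. The neighbours showed no such gap. Abca8a measured 2.04, 2.75 and 2.58 FPKM with lenvatinib and 2.18, 2.12 and 1.90 FPKM with DMSO (log2 fold change 0.17, limma adjusted p = 0.344). Abca8b, Abca6 and Abca5 were below 0.4 FPKM in every library and overlapped between groups. Abca6, for instance, had 31, 51 and 53 reads with lenvatinib and 37, 21 and 19 reads with DMSO.

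Abca12, known for lipid delivery in skin, was the highest of subfamily A, at 15.9, 21.3 and 21.2 FPKM with lenvatinib and 18.3, 14.3 and 14.3 FPKM with DMSO. Lenvatinib 1 and DMSO 1 both departed from their groups, so the ranges overlap (log2 fold change 0.29, limma adjusted p = 0.284). Abca3, which loads surfactant lipid in the lung, was above the DMSO range in all 3 lenvatinib libraries, at 13.2, 15.0 and 14.6 FPKM against 11.6, 12.6 and 12.5 FPKM in DMSO (log2 fold change 0.20, SE 0.0729, adjusted p = 0.192). Abca7, a phospholipid transporter, differed little, at 10.5 ± 0.0683 FPKM with lenvatinib and 10.7 ± 0.737 FPKM with DMSO. Abca2, an endolysosomal transporter, averaged 1.60 ± 0.391 FPKM with lenvatinib and 1.61 ± 0.0481 FPKM with DMSO, with lenvatinib 1 above and lenvatinib 2 and 3 below every DMSO library. Abca4, Abca13, Abca14 and Abca17 stayed under 0.05 FPKM in every library, and Abca15 was listed at 0 in all 6.

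Organelle transporters of subfamily B showed small differences. Abcb10, of the inner mitochondrial membrane, measured 11.5, 12.3 and 12.3 FPKM with lenvatinib and 11.1, 12.6 and 12.5 FPKM with DMSO. Abcb6, a porphyrin transporter, measured 28.8, 39.8 and 39.4 FPKM with lenvatinib and 35.7, 35.5 and 37.4 FPKM with DMSO, so that lenvatinib 1 was the lowest and the other 2 the highest. Abcb8, also mitochondrial, was highest in lenvatinib 1, at 10.2 FPKM. These genes and Abcb9, the lysosomal peptide transporter, had log2 fold changes from -0.02 to 0.10 and limma adjusted p from 0.593 to 0.996. Of 16 genes of haem synthesis and iron-sulphur metabolism 0 passed (2 at an unadjusted p below 0.05), with a median log2 fold change of -0.02. The liver transporters Abcb4, for phosphatidylcholine, and Abcb11, for bile salts, had at most 31 and 3 reads in a library.

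Subfamily D imports fatty acyl chains into peroxisomes, apart from Abcd4, which works with lysosomal cobalamin. Abcd3, the abundant peroxisomal protein PMP70, measured 50.4, 51.2 and 50.8 FPKM with lenvatinib and 45.4, 49.3 and 47.5 FPKM with DMSO. The groups were apart, but the log2 fold change was only 0.10 (SE 0.0556, limma adjusted p = 0.322). Abcd4 was also apart, at 4.26, 3.47 and 3.72 FPKM with lenvatinib and 3.42, 3.37 and 3.36 FPKM with DMSO (adjusted p = 0.353). Abcd2, a peroxisomal fatty acyl transporter, was low and lower without overlap, with 73, 51 and 53 reads with lenvatinib and 73, 95 and 94 reads with DMSO, where lenvatinib 1 and DMSO 1 were almost equal. Of 15 peroxisomal oxidation genes 14 had positive fold changes, with a median of 0.25, and 1 of the 15 rose in limma.

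The soluble subfamilies E and F had lower means in all 4 genes, and 0 of 4 passed. Abce1, which splits ribosomes for recycling, measured 23.2, 17.1 and 16.8 FPKM with lenvatinib and 23.2, 26.2 and 25.7 FPKM with DMSO (log2 fold change -0.39, SE 0.132, limma adjusted p = 0.176). Lenvatinib 1 was level with DMSO 1. Abcf1, which acts in translation initiation, was apart between groups, at 37.6, 32.0 and 33.3 FPKM with lenvatinib and 39.0, 42.3 and 38.8 FPKM with DMSO (log2 fold change -0.22, adjusted p = 0.194). Abcf2 averaged 14.7 ± 2.33 FPKM with lenvatinib and 17.8 ± 0.987 FPKM with DMSO, and Abcf3 11.9 ± 0.843 FPKM with lenvatinib and 13.1 ± 0.286 FPKM with DMSO. Among 12 other genes of ribosome recycling and initiation 0 passed (2 at an unadjusted p below 0.05), and the median log2 fold change was -0.13.

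Some members of the superfamily carry other symbols and are not matched by the rule. Cftr, the chloride channel, averaged 26.7 ± 2.15 FPKM with lenvatinib and 24.1 ± 2.80 FPKM with DMSO (limma adjusted p = 0.408). For the peptide transporter genes Tap1 and Tap2, library 1 of each group stood apart from libraries 2 and 3, more so for Tap1. Tap1 measured 91.4, 34.4 and 34.7 FPKM with lenvatinib and 42.8, 69.7 and 69.0 FPKM with DMSO, and Tap2 averaged 36.4 ± 10.3 FPKM with lenvatinib and 42.4 ± 4.25 FPKM with DMSO. Of 11 peptide loading genes, Tap1 and Tap2 included, 0 passed (2 at an unadjusted p below 0.05).

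Receptors that sense drugs, bile acids and sterols are known to control ABC genes. Of 15 tested, 1 rose, Nr1h4, the bile acid receptor FXR, at 62.1, 54.2 and 55.5 FPKM with lenvatinib against 32.9, 32.1 and 33.3 FPKM with DMSO (log2 fold change 0.79, SE 0.0687, limma adjusted p = 0.00539). Nr1i2, the xenobiotic receptor PXR, was higher without overlap, at 24.8, 31.1 and 30.7 FPKM with lenvatinib against 21.0, 20.2 and 21.0 FPKM with DMSO, and did not pass (adjusted p = 0.0827). Ahr, the aryl hydrocarbon receptor, was lower without overlap (3.66 ± 0.0445 FPKM with lenvatinib, 4.70 ± 0.529 FPKM with DMSO, adjusted p = 0.143). Nr1h2 and Nr1h3, the liver X receptors, overlapped between groups.

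Other targets of these receptors were counted by list, each set beside the median of -0.07 over all genes. Of 10 tested PXR targets 0 passed (2 at an unadjusted p below 0.05), 9 had positive fold changes and the median was 0.41. Cyp3a13, a drug-oxidising enzyme, averaged 46.0 ± 8.94 FPKM with lenvatinib and 27.4 ± 1.80 FPKM with DMSO (limma adjusted p = 0.0809). Of 4 tested FXR targets 3 rose: Fabp6, the ileal bile acid importer Slc10a2 (10.1 ± 3.01 FPKM with lenvatinib, 1.79 ± 1.01 FPKM with DMSO) and the exporter subunit Slc51a (83.6 ± 13.0 FPKM with lenvatinib, 40.5 ± 2.97 FPKM with DMSO). The other tested gene was higher without overlap and did not pass (limma adjusted p = 0.110). The listed genes that were not tested were under the filter, with 1 and 40 reads summed over the lenvatinib libraries and 2 and 5 over DMSO. Fabp6 is also on the small intestinal list above. Of 11 targets of the liver X receptors, all other than ABC genes, 0 passed, 5 had an unadjusted p below 0.05 and the median was -0.33. Scd1, a fatty acid desaturase of that list, measured 11.9, 9.62 and 9.82 FPKM with lenvatinib against 14.1, 55.5 and 57.8 FPKM with DMSO (adjusted p = 0.155). Of 11 PPARα targets 5 rose and 0 fell, with a median of 0.49, and of 11 NRF2 targets 0 passed (3 at an unadjusted p below 0.05), with a median of 0.12. Among 13 solute carriers for drugs, bile acids and nucleosides 2 rose, Slc10a2 and Slc51a, and the median was -0.10.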

How the data were processed

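Total colon RNA, isolated with TRIzol, went into sequencing libraries built with a VAHTS kit, per the labels' protocols. The authors deposited 1 table of FPKM values, and all 6 columns were used. The tool HTSeq and the build GRCm39 appear there, per the submitters' processing notes. Aligner, annotation, strand setting and filters: not given in the sources read. RefSeq promoters and gene order are of build GRCm38.p6. All 48 members matched that table by symbol and 36 had a promoter window (43 windows).

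Reads were recovered as the smallest whole multiples, within 0.01 reads, that fit a gene's FPKM values. All 21859 genes above 0 in 2 or more libraries (100%) gave such multiples, and limma-voom on these reads called 238 genes. For the 2092 genes above 0 in 1 library only, reads cannot be told and were left out. Each step implies a gene length, 2432 to 16770 bases among the members. A factor common to all 6 libraries would go unseen, so reads are the smallest that the values allow. Counting limits only the low members.

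The two-sided test used limma 3.58.1 (R 4.3.3) with a trended and robust prior on log2(FPKM + 1), a pseudocount of 1, for genes averaging 1 FPKM or more. The code was tested on simulated data. Members, roles, lists and tests were chosen with earlier results of these data known. All members enter the counts, but some genes are not reported by name here. The pumps, and members that pass or do not overlap, are given by library, and list genes are named from the 4 lowest p-values of each list. Further members were given by library after their values were seen. Marker lists without a result beside them are not described. Alternatives changed the pseudocount, filter, scaling, prior, weights, measure and replicates.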

Additional observations from a re-analysis of the deposited data

How the results depend on the processing

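Under the 17 alternatives, 22 of the 29 tested members kept their direction and 7 changed sign in at least 1. Of these 7, 1 passed, and only with sample weights. Apart from sample weights and the comparison without lenvatinib 1, 3 of 435 member values passed, all of Abca9. The main counts were 0 members higher, 0 lower, 0 pumps and 239 of all genes. With sample weights 9 members were higher, 10 lower, 4 pumps passed and 7582 genes passed (64.4%). With the 0.1 FPKM filter 1 member was higher (Abcg5, which passed that filter only through the lenvatinib libraries) and 1 lower (Abca9). Voom on recovered reads and a prior without trend or robustness each called 1 lower (Abca9, which met the filter there only through the DMSO libraries). Without 1 library, counts ranged from 0 to 8 higher, 0 to 8 lower, 0 to 3 pumps (Abcb1a, Abcc3 and Abcg2) and 45 to 4479 of all genes. Members passed only without lenvatinib 1. All genes passing numbered 58 without lenvatinib 2, 57 without lenvatinib 3, 50 without DMSO 2 and 45 without DMSO 3. No filter gave 140 genes, the pairs of libraries 2 and 3 averaged gave 3, and the same pairs as a random block gave 46, with 0 members each.

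With the replicate number as a replicate block, 29 genes and 0 members passed. The deviations of same-numbered libraries correlated at -0.196, -0.159 and -0.151, so no deviation shared by number was seen, and the labels name no shared source. Because libraries 2 and 3 of each group are closely alike, these correlations are not independent and cannot settle whether the numbers pair the samples. Depth limits members below 0.1 FPKM, such as Abcb11 with at most 3 reads in a library.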
